A study of Drosophila melanogaster with 5 samples.

Results

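The sites described here are the places on the large autosomal arms 2L, 2R, 3L and 3R where ZIPIC and Zw5 were both called in Drosophila melanogaster embryos. An interval of the ZIPIC list called against input was a member if it overlapped an interval of the Zw5 list called against input by 1 bp or more, and so was that Zw5 interval. This gave 144 ZIPIC and 145 Zw5 intervals, which joined into 144 sites, out of 3115 intervals of all proteins and chromosomes in the input lists. They were thus chosen by the measured ZIPIC and Zw5 peak calls. Of these sites 48 also carried a Pita interval called against input, and 96 did not.

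Pita, ZIPIC and Zw5 are zinc-finger DNA-binding proteins of a family that shares an N-terminal ZAD domain, known mainly for pairing a protein with another copy of itself. They are studied as insulator or architectural proteins, which bind particular DNA sites and affect which enhancers and promoters contact each other. ZIPIC and Pita recruit the insulator protein CP190, and Zw5 was first described as a protein that binds a chromatin boundary beside a heat-shock gene cluster. The peak names call ZIPIC CG7928. The gene of Zw5 is named dwg in RefSeq, after the deformed wings of its mutants.

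Chromatin immunoprecipitation followed by sequencing was done once for each protein, on Oregon-R embryos collected over 12 h and fixed in 1.8% formaldehyde for 15 min, with rabbit antibodies raised to residues 84 to 257 of ZIPIC, 98 to 302 of Zw5 and 550 to 683 of Pita. Input DNA and a precipitate made with preimmune rabbit serum were the controls. The peak names give chromatin preparation B for ZIPIC and preparation A for Zw5 and Pita, so that preparation and protein cannot be told apart for ZIPIC. No preparation is named for the input and preimmune serum libraries, and a fold may therefore compare different chromatin. The embryos were whole and wild type, so a site bound in a few cells and a site bound weakly in all cannot be told apart. The ZIPIC library was also the shallower: the most common background at a summit was 1.06 fragments for ZIPIC, 10.3 for Zw5 and 9.18 for Pita.

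Membership was decided by the ZIPIC and Zw5 calls against input, so the heights, widths and summits in those lists are given as a description, with no test. Only the Pita lists and the calls against preimmune serum were not used by the rule. With 1 library for each protein there is no spread between replicates, and peaks of 1 library are not replicates, so no difference was tested. Intervals on shares are Wilson 95% intervals over peaks and intervals on pileups are exact Poisson 95% intervals. They cover counting error only. Heights are the authors' fold enrichments, the stacked fragments at the summit relative to the background taken from the control there. Each fold fits a form with 1 fragment added to both counts, which lowers folds most where the background is small. The most common input background was 1.06 for ZIPIC and 10.3 for Zw5, so ZIPIC folds are lowered more than Zw5 folds. Positions are on dm3, counted from 1.

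The shared sites took in most of the high ZIPIC intervals and few of the high Zw5 intervals. They were 34.1% of the 422 autosomal ZIPIC intervals (Wilson 95% interval 29.8 to 38.8) and 25.9% of the 560 autosomal Zw5 intervals (22.4 to 29.7), and these shares are set by the rule. In the highest quartile group of the ZIPIC list, with folds from 59.8 down to 21.6, 86 of 106 intervals were shared (81.1%, 72.6 to 87.4). The shared number was 34 of 106 in the second quartile group, 15 of 105 in the next and 9 of 105 (8.57%, 4.57 to 15.5) in the lowest, where folds ran from 7.59 to 3.94. All of the 20 highest autosomal ZIPIC intervals carried Zw5, and so did 45 of the 50 highest.

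Zw5 showed another order. In the highest quartile group of its list, with folds from 36.8 to 15.9, 6 of 140 intervals were shared (4.29%, 1.98 to 9.03). In the other quartile groups the number was 50, 48 and 41 of 140. None of the 10 highest Zw5 intervals carried ZIPIC, and 3 of the 50 highest did.

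**Figure D1:**
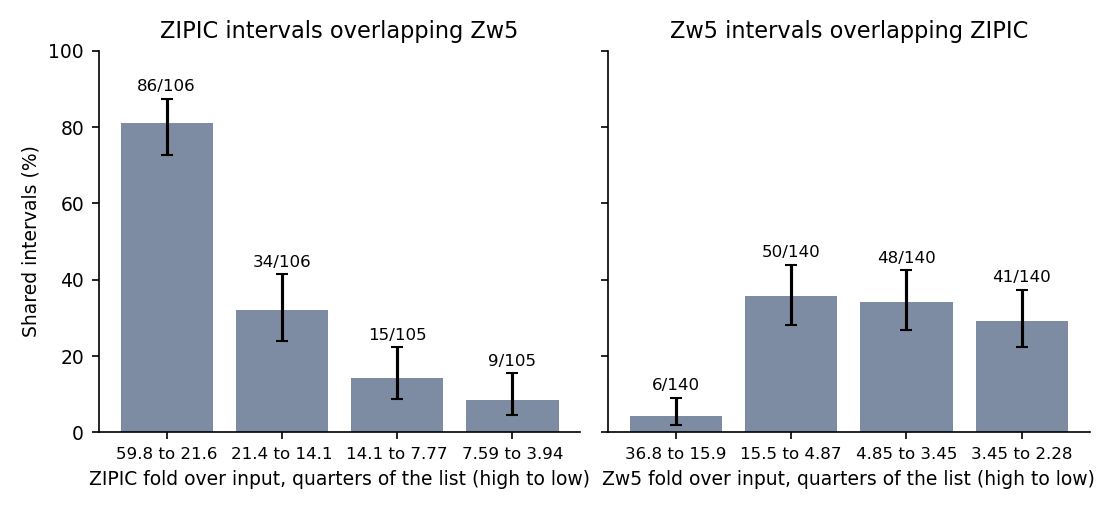
Share of autosomal ZIPIC intervals that overlap Zw5 (left) and of autosomal Zw5 intervals that overlap ZIPIC (right), in quartile groups of each list from the highest to the lowest fold over input. Bars give percent, error bars are Wilson 95% intervals, and the counts stand above them. The share is 81.1% in the highest and 8.57% in the lowest ZIPIC group, and 4.29% in the highest Zw5 group.

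The median ZIPIC fold over input was 23.6 at the shared intervals (range 4.93 to 59.8), against 10.0 at the 278 ZIPIC intervals without Zw5 (3.94 to 32.3) and 14.1 over all autosomal ZIPIC intervals. The median Zw5 fold was 4.19 at the shared intervals (2.65 to 31.8), against 5.43 at the 415 Zw5 intervals without ZIPIC (2.28 to 36.8) and 4.86 over all. The Zw5 intervals without ZIPIC were a mixture. Those with Pita had a median fold of 3.94 (192 intervals) and those without Pita one of 17.7 (223 intervals). The shared Zw5 intervals therefore lay near the height of Zw5 intervals on Pita and far under that of Zw5 alone.

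Folds are divided by unequal backgrounds, so the pileup at the summit, the number of fragments stacked there, was also recovered. ZIPIC had a median of 54 fragments at the shared intervals (10 to 122), against 23 at those without Zw5 (8 to 79). Zw5 had a median of 59 fragments (31 to 430), against 72 (27 to 470) at those without ZIPIC. The fragments above background at the Zw5 summit were a median of 0.874 times those at the ZIPIC summit (interquartile range 0.668 to 1.29, 144 sites). Because the Zw5 library had the deeper background, nearly equal fragment numbers were a much lower fold for Zw5. The fragment length used for stacking is not stated, and it may differ between proteins. The shortest intervals in the input lists were 152 bp for ZIPIC and 241 bp for Zw5. Fragment numbers, backgrounds and widths of the 2 proteins may therefore not compare like for like. ZIPIC had the higher fold at 139 sites and Zw5 at 5.

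The site with the highest ZIPIC fold was chr3L:12565332-12565908. ZIPIC stood at 59.8-fold over either control there, with 122 fragments at the summit (exact Poisson 95% interval 101 to 146). Zw5 was 15.4-fold over input (13.1 over preimmune serum), with 173 fragments (148 to 201), and both summits fell on the same base. Pita was low at this site, 3.14-fold over input, and was not called there against preimmune serum.

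Of the 10 sites highest for ZIPIC, 8 had no Pita. The second was chr3R:3947820-3948456, with ZIPIC at 52.6-fold over input (48.8 over preimmune serum) and Zw5 at 8.55-fold (7.24). At chr2L:13176488-13177132 ZIPIC was 48.1-fold over input (52.6 over preimmune serum) and Zw5 9.12-fold (10.4). The other site with Pita among the 10 was chr3L:5806111-5806611, with ZIPIC at 47.8, Zw5 at 11.2 and Pita at 30.3 times input. At these 3 sites the summits of ZIPIC and Zw5 were between 16 and 19 bp apart.

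Not every high ZIPIC site kept its ZIPIC fold over the other control, though ZIPIC was still called there. At chr3R:25597721-25598122 ZIPIC was 45.6-fold over input but 9.03-fold over preimmune serum, and Zw5, at 5.12-fold over input, was not called against preimmune serum. The next 4 sites in the order kept similar folds over both controls. They were chr3L:8179487-8180206 (ZIPIC 45.2 over input, 46.8 over preimmune serum), chr2L:11268855-11269606 (44.8 and 44.6), chr3L:3198792-3199346 (44.7 and 44.6) and chr2L:11106512-11107049 (43.6 and 50.5), with Zw5 folds over input between 6.43 and 6.94.

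The last of the 10, chr3L:8108722-8109570, was high for both proteins. ZIPIC was 43.3-fold over input with 101 fragments (82.3 to 123), and Zw5 25.0-fold with 360 fragments (324 to 399). The summits were 77 bp apart. It was the best-ranked site of the pair without Pita, number 10 in the autosomal ZIPIC list and number 63 in the Zw5 list. The site at chr2L:414607-415117, also among the 5 best-ranked without Pita, had ZIPIC at 40.1-fold and Zw5 at 7.76-fold.

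At the 10 sites highest for Zw5, the ZIPIC fold ranged from 8.48 to 59.8. At chr2R:4980145-4980951 Zw5 was 31.8-fold over input with 414 fragments (375 to 456), while ZIPIC was 8.48-fold with 18 fragments (10.7 to 28.4). At chr2R:3452903-3454715 Zw5 was 30.3-fold and ZIPIC 9.26-fold, in a Zw5 interval of 1813 bp whose summit lay 921 bp from that of ZIPIC. These were the 2 highest ratios of Zw5 fold to ZIPIC fold, 3.75 and 3.27, and the next was 1.69, at chr2L:13813335-13814037.

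In 3 more sites Zw5 exceeded ZIPIC in fold. They were chr2L:8159353-8160215 (Zw5 29.3, ZIPIC 26.3), chr2R:3826274-3827016 (24.3 and 14.9) and chr2L:13813335-13814037 (23.1 and 13.7). The summits in each lay between 21 and 46 bp apart. At chr2L:8159353-8160215 ZIPIC had 58 fragments over a background of 1.24 and Zw5 377 over 11.9. The order of the folds there rests on the fragment added to each count. At chr2L:1177401-1177950 the folds were about equal, at 13.2 for Zw5 and 13.4 for ZIPIC, again with the added fragment. All these sites, and all 6 shared intervals in the highest quartile group of the Zw5 list, were without Pita (Wilson upper limit 39.0%). Pita was rare in that group, on 13 of its 134 intervals without ZIPIC (9.70%, 5.76 to 15.9) and 9.29% of all 140, so 0 of 6 lay near the background. At the other end, the lowest ratios of Zw5 to ZIPIC fold were 0.0942 at chr3R:25314868-25315430 (Zw5 3.24, ZIPIC 34.4), 0.0977 at chr2L:9758892-9759225 (2.65 and 27.2) and 0.104 at chr3R:46501-46953 (3.85 and 37.1).

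Across the 144 sites the folds of ZIPIC and Zw5 had a Spearman correlation of 0.45, with 0.55 at the 48 sites with Pita and 0.40 at the 96 without. The Pearson correlation of the log2 folds was lower over all sites, at 0.23, with 0.55 with Pita and 0.049 without. The points share the input library in both folds and their local base composition and mappability, and they are peaks of single libraries.

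**Figure D2:**
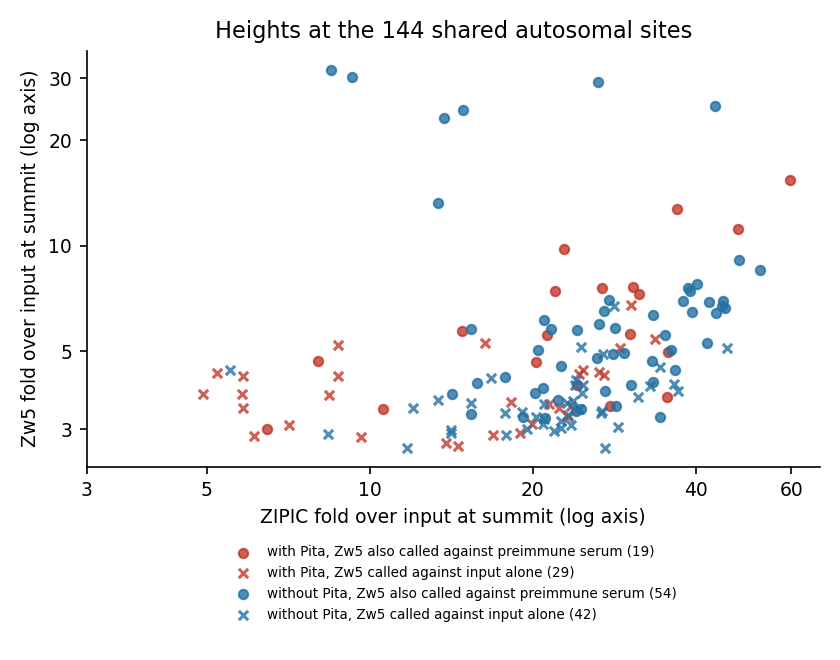
ZIPIC fold over input (horizontal) against Zw5 fold over input (vertical), both on log axes, 1 point for each of the 144 shared sites. Colour gives Pita (red with, blue without), circles mark sites whose Zw5 interval was also called against preimmune serum and crosses those where it was not. Most points lie below 10-fold for Zw5 over the whole ZIPIC range.

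At the low end of the rule, the ZIPIC intervals of the weakest members rested on few fragments. The lowest by q were chr2R:8088505-8088774 (4.93-fold, 10 fragments, interval 4.80 to 18.4), chr3R:6500903-6501270 (5.21-fold, 10 fragments) and chr3L:4219319-4219614 (5.51-fold, 11 fragments), and none was called against preimmune serum. The lowest for Zw5 were chr3R:12866240-12866606 (2.66-fold, 31 fragments), chr2L:7810565-7811205 (2.92-fold, 32 fragments) and chr3L:19786725-19787176 (2.73-fold, 40 fragments). ZIPIC at these last 3 sites was 11.7, 18.9 and 13.8 times input.

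The 1 bp rule was far from the border for nearly all pairs. The least overlaps were 111 bp at chr3L:15261127-15261464, 139 bp at chr3R:19644873-19645177 and 152 bp at chr3R:6500903-6501270, and the median overlap was 304 bp. The closest pairs that missed were separated by 135, 138 and 161 bp. In the first, a ZIPIC interval at chr3L:1312985-1313330 (8.21-fold) stood beside a Zw5 interval at chr3L:1313466-1313820 (3.99-fold). In the second, ZIPIC at chr3L:17009508-17009777 (11.8-fold) stood beside Zw5 at chr3L:17008948-17009369 (6.80-fold). The next was ZIPIC at chr3R:25598255-25598581 (14.3-fold), beside the Zw5 interval of the site at chr3R:25597721-25598122. Of the 278 ZIPIC intervals without Zw5, 4 had a Zw5 interval within 500 bp and 31 within 5000 bp.

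Within a site the 2 proteins peaked at nearly the same place. The median distance between the summits was 24.5 bp (interquartile range 12.8 to 47.5), with 76 of 144 within 25 bp, 110 within 50 bp (76.4%, 68.8 to 82.6) and 130 within 100 bp. ZIPIC lay to the right of Zw5 on the reference strand at 67 sites, to the left at 74 and on the same base at 3. The Zw5 interval lay inside the ZIPIC interval at 66 sites, the ZIPIC interval inside the Zw5 interval at 23, at 54 each reached beyond the other, and at 1 both had the same ends. Sites had a median length of 452 bp, and median widths were 412 bp for ZIPIC and 350 bp for Zw5 over the shared intervals.

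In 14 sites the summits were over 100 bp apart, 9 with Pita and 5 without. The longest distance, 1203 bp, was at chr3L:7346998-7349576, where a ZIPIC interval of 2579 bp held a Zw5 interval of 407 bp. The only site with more than 1 interval of a protein was chr3R:27046169-27047114, where 1 ZIPIC interval of 924 bp (30.2-fold) overlapped 2 Zw5 intervals, the higher 5.59-fold over input (2.31 over preimmune serum). It also carried Pita at 34.1-fold, with its summit 989 bp from that of ZIPIC.

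**Figure D3:**
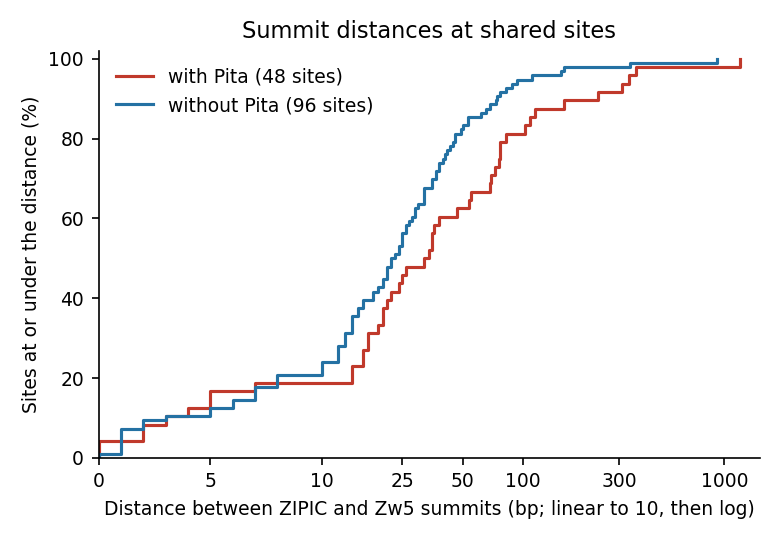
Cumulative share of shared sites by the distance between the ZIPIC and Zw5 summits, for sites with Pita (red, 48) and without (blue, 96). The distance axis is linear to 10 bp and logarithmic above. Within 50 bp lie 62.5% of the sites with Pita and 83.3% of those without.

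Pita was the measure that the rule had not used. It overlapped 47 of the 144 shared ZIPIC intervals (32.6%, 25.5 to 40.7), against 33 of the 278 ZIPIC intervals without Zw5 (11.9%, 8.58 to 16.2), where the background over all 422 was 19%. Among the shared Zw5 intervals it overlapped 48 of 145 (33.1%, 26.0 to 41.1), against 192 of the 415 Zw5 intervals without ZIPIC (46.3%, 41.5 to 51.1), where the background over all 560 was 42.9%. The share at shared sites thus lay above that of other ZIPIC intervals and below that of other Zw5 intervals. The order for Zw5 turned with the control. Among intervals called against both controls Pita lay on 23.0% of the shared Zw5 intervals and on 19.6% of the others, and with the preimmune lists alone on 24.0% and 19.3%. The ZIPIC order was kept in all 12 alternatives, but the shares lay closer together when the control changed. Among intervals called against both controls Pita lay on 21.9% of shared ZIPIC intervals (14 to 32.7) and 12.4% of the others (9.14 to 16.6). With the preimmune lists alone the shares were 22.7% (14.7 to 33.3) and 11.1% (8.12 to 15.1). In each of these settings the Wilson intervals of shared and other ZIPIC intervals overlapped. All calls in the input lists share the input library, and all in the preimmune lists share 1 preimmune serum library. Pita and Zw5 also share chromatin preparation A, while ZIPIC is from preparation B.

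The share with Pita also moved with ZIPIC height. Among the shared ZIPIC intervals, sites with Pita were 23 of 86 in the highest ZIPIC quartile group (26.7%, 18.5 to 36.9), 10 of 34 in the second, 7 of 15 in the next and 8 of 9 in the lowest (88.9%, 56.5 to 98.0). Among ZIPIC intervals without Zw5, Pita lay on 2 of 20, 6 of 72, 11 of 90 and 14 of 96 (14.6%, 8.89 to 23.0) in the same order. In the lowest ZIPIC group, Pita was thus on nearly all of the few intervals that carried Zw5 and on few of the many that did not. By Zw5 height from high to low, sites with Pita were 0 of 6, 18 of 50, 18 of 48 and 13 of 41 shared Zw5 intervals. Among Zw5 intervals without ZIPIC, Pita lay on 13 of 134, 47 of 90, 76 of 92 and 56 of 99. The pooled Zw5 shares mix these unlike groups.

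Pita itself was high at most of these sites. At the 48 Pita intervals on shared sites its median fold over input was 27.3 (2.15 to 41.7), against 10.4 over all 1404 autosomal Pita intervals, 30.7 at the 189 on Zw5 outside shared sites, 6.15 at the 33 on ZIPIC outside shared sites and 8.06 at the 1134 with neither. By quartile groups of the autosomal Pita list from high to low, 25, 11, 1 and 11 of 351 intervals in each lay on a shared site, where the background over all 1404 was 3.42%. Pita at 40 of the 48 (83.3%, 70.4 to 91.3) was also called against preimmune serum, where the background over all autosomal Pita intervals was 74.6%.

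At the 11 shared sites in the lowest quartile group of the Pita list Pita had folds of 2.15 to 3.57, and 3 of these Pita intervals were called against preimmune serum. ZIPIC ranged there from 6.46 to 59.8, with a median of 21.4. At the 25 in its highest quartile group Pita had folds of 27.2 to 41.7 and ZIPIC ones of 4.93 to 47.8, with a median of 22.0. Pita pileups at the 48 sites bunched at the top, with an upper quartile of 409 and a maximum of 434 fragments. The part of the local input in the order of the highest Pita folds was not tested. Across the 48 sites the fold of Pita had a Spearman correlation of −0.12 with that of ZIPIC and 0.22 with that of Zw5, over points that share the input library.

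The sites best ranked for ZIPIC and Zw5 together that also had a high Pita interval were chr3L:5806111-5806611, given above, and chr3R:796220-796863. In the second, ZIPIC was 36.9-fold over input with 75 fragments (59.0 to 94.0), Zw5 12.8-fold with 143 (121 to 168) and Pita 37.8-fold. The ZIPIC and Zw5 summits were 2 bp apart and the Pita summit lay 161 bp from that of ZIPIC. At chr3L:8130608-8131096 the folds were 30.6 for ZIPIC, 7.63 for Zw5 and 37.9 for Pita, and at chr3R:5341451-5341903 they were 31.4, 7.26 and 31.9. The 3 summits of these last 2 sites spanned 23 and 10 bp. All 4 of these sites were called for all 3 proteins against both controls.

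**Figure D4:**
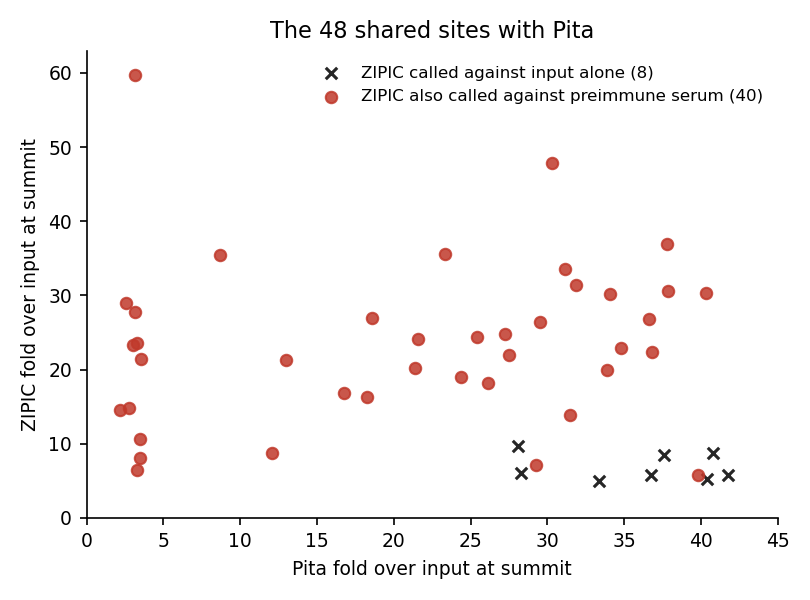
Pita fold over input (horizontal) against ZIPIC fold over input (vertical) at the 48 shared sites with Pita. Red circles are sites whose ZIPIC interval was also called against preimmune serum (40), black crosses those where it was not (8). The 8 crosses all lie at Pita folds of 28.1 or more and ZIPIC folds under 10, and a group of 11 circles lies at Pita folds under 4.

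The Zw5 medians over input at sites with and without Pita lay close together, while the ZIPIC median and lower quartile over input were lower with Pita. ZIPIC was 21.3-fold over input at the 48 intervals of sites with Pita (interquartile range 9.41 to 27.2), against 24.4 at the 96 without (20.0 to 33.3). The median with Pita was the lower in 14 of 15 alternatives, with 17.1 and 23.6 over preimmune serum. Among intervals called against both controls the medians were 27.3 and 27.2. Zw5 was 4.28-fold at the 49 intervals of sites with Pita (3.45 to 5.42), against 4.07 at the 96 without (3.38 to 6.02). That order turned when heights were taken over preimmune serum, with 4.63 and 5.03, and in pileup, with 54 and 61.5 fragments. The ratio of Zw5 to ZIPIC fold had a median of 0.232 with Pita and 0.168 without, and kept this order in all 13 alternatives that gave it.

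The summits of ZIPIC and Zw5 were a median of 33 bp apart at sites with Pita and 22.5 bp at those without, within 50 bp at 30 of 48 (62.5%, 48.4 to 74.8) and 80 of 96 (83.3%, 74.6 to 89.5). With both controls the medians were 20.5 and 24.0 bp, the other way round. At the 48 sites the Pita summit was a median of 34 bp from that of Zw5 (35 within 50 bp) and 55 bp from that of ZIPIC (23 within 50 bp). The 3 summits spanned a median of 76 bp. The sites without Pita were in general far from it: the nearest Pita interval was a median of 20096 bp away, though 6 of the 96 had one within 1 kb and 14 within 5 kb.

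The calls against preimmune serum use the same precipitates with another control. ZIPIC was called again at 135 of the 144 shared intervals (93.8%, 88.5 to 96.7), against 236 of the 278 without Zw5 (84.9%, 80.2 to 88.6), where the background over all autosomal ZIPIC intervals was 87.9%. Zw5 was called again at 74 of the 145 shared intervals (51.0%, 43.0 to 59.0), against 225 of the 415 without ZIPIC (54.2%, 49.4 to 58.9), where the background was 53.4%. The share for Zw5 was thus near its background.

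Both shares were lower at shared sites with Pita than at those without. ZIPIC was called again at 40 of 48 intervals with Pita (83.3%, 70.4 to 91.3), against 95 of 96 without (99.0%, 94.3 to 99.8). Zw5 was called again at 20 of 49 with Pita (40.8%, 28.2 to 54.8), against 54 of 96 without (56.2%, 46.3 to 65.7). Among Zw5 intervals without ZIPIC the share was 53 of 192 on Pita (27.6%, 21.8 to 34.3), against 172 of 223 off it (77.1%, 71.2 to 82.2). Among ZIPIC intervals without Zw5 it was nearly the same on Pita, 28 of 33 (84.8%, 69.1 to 93.3), and off it, 208 of 245 (84.9%, 79.9 to 88.8). The local input was at the most common background, the lowest value found at these sites, at 9 of 48 sites with Pita and at 2 of 96 without for ZIPIC, and at 9 and 1 for Zw5. The part of low input in these shares was not tested.

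By site, both proteins were called against both controls at 73 of 144 (50.7%, 42.6 to 58.7), ZIPIC alone at 62 (43.1%, 35.3 to 51.2) and neither at 9. No site kept Zw5 and lost ZIPIC, and 0 of 144 allows a share of up to 2.08% by the limit of 3 counts (Wilson upper limit 2.60%). That limit is over peaks, which are not replicates. Only 9 sites lost ZIPIC at all, and Zw5 was called again at just 51.0% of shared intervals, so few such sites could arise. The median Zw5 fold over input at those 9 was 3.78. The 73 had median folds over input of 27.2 for ZIPIC and 5.70 for Zw5, and the 62 had 22.8 and 3.47. Zw5 was thus lower at the median where its call was lost against preimmune serum. The most common background solved from the Zw5 list against that control was 4.98, against 10.3 in the list over input, but pileups there came out whole for only 8.45% of peaks, against 100% over input. For ZIPIC it was 1.06 over either control. The part of the control's depth in these calls was not tested.

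The 9 sites that lost both were low for ZIPIC and, all but 1, high for Pita. Their ZIPIC folds over input ran from 4.93 to 9.63, with 10 to 21 fragments at the summit. The exception without Pita was chr3L:4219319-4219614. At the other 8 the Pita fold over input ran from 28.1, at chr3R:5154584-5154854, to 41.7, at chr3L:17662389-17663005, and all 8 Pita intervals were called against preimmune serum. Zw5 at these 8 was between 2.85 and 5.22 times input. The chr3R:5154584-5154854 site had ZIPIC at 9.63, and a second shared site without Pita, chr3R:5160275-5161146, began 5420 bp beyond its end, with ZIPIC at 28.2 and Zw5 at 6.74.

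Where called against both, the folds over the 2 controls were close at the median. Intervals not called against preimmune serum have no ratio. The ratio of the fold over input to that over preimmune serum had a median of 1.09 for ZIPIC at shared intervals (135) and 1.06 for Zw5 (74). By site it ranged from 0.632 to 5.05 for ZIPIC (135 sites) and from 0.507 to 2.42 for Zw5 (73 sites). At the median, the values by group were as follows. For ZIPIC it was 1.19 with Pita and 1.07 without, and for Zw5 1.10 and 1.04. Among Zw5 intervals without ZIPIC the median was 1.43 on Pita and 1.17 off it. Pita at the shared sites had a median of 1.51, against 1.29 over all its autosomal intervals.

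**Figure D5:**
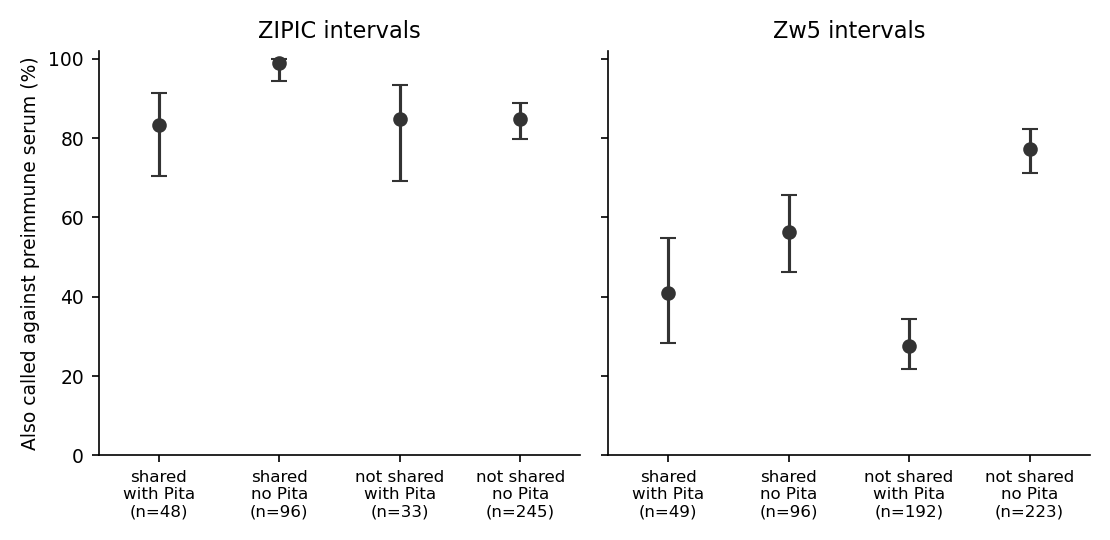
Share of autosomal ZIPIC (left) and Zw5 (right) input-list intervals also called against preimmune serum, for shared intervals with and without Pita and for intervals not shared with and without Pita. Points give percent and error bars are Wilson 95% intervals. The highest is ZIPIC at shared sites without Pita, 99.0%, and the lowest is Zw5 on Pita without ZIPIC, 27.6%.

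The shared sites were spread over all 4 arms. There were 38 on 2L, 24 on 2R, 34 on 3L and 48 on 3R, or 1.67, 1.20, 1.42 and 1.72 per Mb up to the highest coordinate in any list. They made up 40.9% of ZIPIC intervals on 2L (31.4 to 51.0), 27.3% on 2R (19.1 to 37.4), 34.0% on 3L (25.5 to 43.7) and 34.0% on 3R (26.7 to 42.2), and these Wilson intervals all overlap. Pita lay on 13 of the sites on 2L, 5 on 2R, 11 on 3L and 19 on 3R. On X, which is outside the rule, 18 of 77 ZIPIC intervals overlapped Zw5 (23.4%, 15.3 to 34.0), at 0.830 per Mb, and 4 of the 18 carried Pita.

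Most shared sites stood alone. The nearest other shared site was a median of 201 kb away between midpoints, and 13 of 144 had one within 5 kb. The closest were chr2L:9757848-9758537 with Pita and chr2L:9758892-9759225 without, 354 bp apart, with ZIPIC folds of 35.4 and 27.2 and Zw5 folds of 3.70 and 2.65. Next came chr3R:11618252-11618590 with Pita and chr3R:11618972-11619380 without, 381 bp apart, with ZIPIC at 16.9 and 20.9 and Zw5 at 2.89 and 3.09. In a group on 2L, chr2L:2878090-2878706, chr2L:2882946-2883350 and chr2L:2885065-2885491, all without Pita, had ZIPIC folds of 22.6, 27.1 and 36.5 and Zw5 folds of 3.17, 6.51 and 4.41.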

How the data were processed

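The deposited files were 6 MACS2 peak lists in narrowPeak layout, with both an input and a preimmune serum list for each of 3 proteins. Per the submitters' processing notes, cutadapt, Bowtie, MACS2 2.1.0.20140616 and build dm3 were used. The settings of these tools are not stated in the labels. In the authors' files the ratio is a fold at the summit. The −log10 p and −log10 q are also the authors', 1 of each per peak, and the score they deposited is the −log10 q times 10.

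From these files, overlaps of at least 1 bp, sites (overlapping ZIPIC and Zw5 intervals joined), summit distances and medians were computed with Python 3.11.15, numpy 2.4.6, pandas 2.3.3 and scipy 1.17.1. Pileups were solved from fold and p as a Poisson tail, and came out within 0.05 of a whole fragment for 100% of the input-list peaks. They serve as depth, since total reads are not known, but they also depend on the fragment length used, which is not stated. Overlap and pileup steps were tested on simulated data. Where a site held several intervals of a protein, the highest was used.

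The members and lists were chosen with earlier results of these data known. Sites were named by rule: the highest 10 for each protein, the 5 best by summed rank with and without Pita, the lowest 3 by q, the least and closest overlaps, sites with several intervals and the extreme ratios. The sites that lost both calls against preimmune serum, those with far summits and the closest neighbours were chosen after their values were seen. No sequence or gene annotation of build dm3 was used here, so no site is placed in a gene.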

Additional observations from a re-analysis of the deposited data

How the results depend on the processing

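No paired analysis was possible because each protein has 1 library and the result comes from no test. Of the alternatives, −log10 q of at least 5, overlap of 50% of the shorter interval, the arms 2L or 2R left out, and pileup or fragments above background as the height moved no share or median out of its 95% interval. A ratio of medians was held against limits made from the 95% intervals of both medians. Counts carry no interval, and they fall when an arm is left out.

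With intervals called against both controls, 73 ZIPIC and 74 Zw5 intervals were shared, 19.7% of ZIPIC. Pita lay on 21.9% of shared ZIPIC, 23% of shared Zw5 and 19.6% of other Zw5 intervals, median folds over input were 27.2 for ZIPIC and 5.65 for Zw5, and the Zw5 median was 0.298 times that of other Zw5 intervals. With the preimmune lists these values were 75, 75, 19.3%, 22.7%, 24%, 19.3%, 25.6 and 4.89 (folds over preimmune serum) and 0.313. Pita lay on 12.4% of other ZIPIC intervals with both controls and on 11.1% with the preimmune lists. At −log10 q of at least 10, Pita lay on 24.5% of shared ZIPIC, 25.2% of shared Zw5 and 37.7% of other Zw5 intervals. ZIPIC was called again against preimmune serum at 92.3% with Pita and 100% without, and Zw5 at 55.6% and 70%. Medians were 26.4 for ZIPIC, 1.82 times the others, and 4.93 for Zw5, 0.468 times the others. With summits within 100 bp, Pita lay on 23.8%, 24.6% and 39.5% in the same order. Without 3L, ZIPIC without Pita was called again at 100%. Without 3R, 96 Zw5 intervals were shared, since the 49 on 3R were left out. Splitting by Pita against preimmune serum or against both controls, Pita lay on 7.91% or 8.27% of ZIPIC intervals without Zw5 and on 40.7% of Zw5 intervals without ZIPIC in either. As fold over preimmune serum, shared Zw5 was 0.314 times other Zw5, and in −log10 p, shared ZIPIC was 3.22 times other ZIPIC. The causes were not tested.

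The Zw5 median with Pita was above that without in 9 of 15 alternatives. The order of the other comparisons with Pita was turned in at most 3 alternatives, those given beside each result and, for the summit distance, −log10 q of at least 10 (20.5 bp with Pita, 21 bp without) and the preimmune lists (20 bp and 22.5 bp). The window alternatives for sequence were not run, since no dm3 sequence was used. Low ZIPIC intervals rest on as few as 10 fragments at shared sites.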
